A study of Mus musculus with 12 samples.

Results

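Chemokine ligands were followed in cultured mouse adipocytes that had been derived from stromal vascular fraction (SVF) cells of subcutaneous fat. Members were all rows of the count table whose symbol starts with Ccl or Cxcl and a digit, or is Cx3cl1 or Xcl1, which gave 47 of 55573 rows. Of these, 28 had 10 or more counts summed over the 12 libraries, 7 had fewer, and 12 had 0.

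Chemokines are small, mostly secreted proteins that bind G protein-coupled receptors and steer the migration of leukocytes and other cells. They are named for the spacing of the cysteines near the amino terminus (CC, CXC, CX3C, XC), and some CXC members carry a Glu-Leu-Arg (ELR) motif that lets them attract neutrophils. In fat, stromal cells, adipocytes, endothelial cells and resident macrophages are known sources, and monocyte attraction to obese fat is a much studied case.

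Libraries came from 3 genotypes on a C57BL/6 background with 4 libraries apiece: wild type (WT), homozygous PPARγ T166A (TA) and homozygous PPARγ T166D (TD). PPARγ is the nuclear receptor that drives adipocyte formation, and both mutations are global knock-ins made with CRISPR-Cas9, TA removing the phosphorylated threonine and TD standing in for its phosphorylated state. All 3 genotypes shared the culture protocol: cells were grown to confluence, induced for 4 days with 850 nM insulin, 1 nM triiodothyronine, 0.5 mM IBMX, 125 nM indomethacin and dexamethasone (5 mM in the labels, where the methods have μM as the unit), kept on insulin and triiodothyronine, and harvested on day 8. The age and number of donor mice per library are not given in the sources used here, so p-values measure the spread between these libraries, which may in part be technical. Gene counts do not show the mutated residue and so do not check the genotype labels. The cells were sequenced to ask how phosphorylation at T166 bears on lipid metabolism.

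Libraries held 16553324 to 20324286 counts each, and chemokine rows took 0.0539 to 0.0816% of counts in WT, 0.0848 to 0.172% in TA and 0.169 to 0.194% in TD. Levels are given as counts per 1000000 counts (CPM), with library totals scaled by edgeR's TMM factors. Marker lists showed adipocyte RNA together with that of other cells. Summed over 10 adipocyte markers, which Fabp4 led, levels were 20258 to 22891 CPM in WT, 19038 to 24178 in TA and 14125 to 16143 in TD. In TD 9 of the 10 were lower than in WT, where 14.2% of all genes were called lower. The 14 macrophage markers, led by Lyz2, summed to 339 to 932, 186 to 682 and 744 to 997 CPM in WT, TA and TD, with all 14 tested. The 9 fibroblast and preadipocyte markers, led by Col3a1, summed to 9181 to 12462, 10379.5 to 18602 and 15701 to 23735 CPM. Blood endothelium (10 markers, led by Pecam1) gave 45.5 to 86.4, 69.6 to 122 and 143 to 179.8 CPM. Here 9 of the 10 were higher in TD than in WT, where 15.1% of all genes were called higher. T and NK cell markers summed to at most 0.545 CPM in a library, with Cd3d, Cd3g, Gzma and Ncr1 at 0 in every library, and B cell markers to at most 0.668 CPM, with Ms4a1 at 0. In such bulk RNA, fewer cells of a type and less RNA per cell cannot be told apart.

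Upstream sequence is shown for 7 members because their levels moved in different ways although several are neighbours on chromosome 5. The letters are the 250 bases before the annotated RefSeq start (GRCm38.p6), written 5′ to 3′ on the strand of the gene. Capitals mark letters that matched a searched motif on either strand. These motifs were the κB consensus, bound by NF-κB, and the interferon-stimulated response element (ISRE), TTTCNNTTTC.
Cxcl1 (chr5:90890995-90891244, plus strand): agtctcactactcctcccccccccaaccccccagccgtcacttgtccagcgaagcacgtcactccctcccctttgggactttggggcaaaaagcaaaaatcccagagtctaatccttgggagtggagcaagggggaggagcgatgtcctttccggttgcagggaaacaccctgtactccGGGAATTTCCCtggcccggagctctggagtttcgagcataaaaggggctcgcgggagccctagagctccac
Cxcl2 (chr5:90903649-90903898, plus strand): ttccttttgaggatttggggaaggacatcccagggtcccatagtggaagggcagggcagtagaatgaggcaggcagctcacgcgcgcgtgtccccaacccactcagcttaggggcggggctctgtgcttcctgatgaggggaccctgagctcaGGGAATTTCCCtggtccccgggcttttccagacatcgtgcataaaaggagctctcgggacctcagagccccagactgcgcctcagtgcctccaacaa
Cxcl3 (chr5:90785851-90786100, plus strand): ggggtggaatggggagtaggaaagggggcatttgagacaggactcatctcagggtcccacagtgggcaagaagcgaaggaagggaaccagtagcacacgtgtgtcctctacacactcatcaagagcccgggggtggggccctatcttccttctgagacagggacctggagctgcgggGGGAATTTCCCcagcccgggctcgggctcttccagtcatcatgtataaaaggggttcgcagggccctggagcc
Cxcl10 (chr5:92348890-92349139, minus strand): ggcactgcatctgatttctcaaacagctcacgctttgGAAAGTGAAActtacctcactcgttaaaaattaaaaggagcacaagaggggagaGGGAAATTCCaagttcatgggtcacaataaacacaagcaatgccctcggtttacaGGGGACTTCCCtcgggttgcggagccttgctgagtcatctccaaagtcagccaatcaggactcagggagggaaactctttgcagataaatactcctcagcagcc
Cxcl9 (chr5:92328080-92328329, minus strand): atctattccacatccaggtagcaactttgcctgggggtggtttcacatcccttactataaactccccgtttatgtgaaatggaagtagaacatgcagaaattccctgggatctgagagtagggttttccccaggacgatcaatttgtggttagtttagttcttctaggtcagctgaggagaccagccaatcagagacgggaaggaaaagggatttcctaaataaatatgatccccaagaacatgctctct
Cxcl12 (chr6:117168285-117168534, plus strand): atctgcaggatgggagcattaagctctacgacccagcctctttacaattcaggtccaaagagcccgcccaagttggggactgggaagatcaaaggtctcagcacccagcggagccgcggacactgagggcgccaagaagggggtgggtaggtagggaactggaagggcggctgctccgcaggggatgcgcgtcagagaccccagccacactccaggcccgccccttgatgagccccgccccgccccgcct
Cxcl13 (chr5:95956689-95956938, plus strand): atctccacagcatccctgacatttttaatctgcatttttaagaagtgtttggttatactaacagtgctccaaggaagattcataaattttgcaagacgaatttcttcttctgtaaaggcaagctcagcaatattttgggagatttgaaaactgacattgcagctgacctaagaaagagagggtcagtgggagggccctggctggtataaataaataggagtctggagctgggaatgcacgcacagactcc

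Cxcl1, Cxcl2 and Cxcl3 each held the κB letters as 2 overlapping matches, with the first starting 71, 97 and 73 bases before the start. Cxcl10 held κB matches at 159, 104 and 103 bases and an ISRE match at 213 bases. The windows of Cxcl9, Cxcl12 and Cxcl13 held no match to either motif, which says only that these letters were not found there. Of the 28 members with 10 or more counts, 18 had such a window. Besides those shown, Ccl9 held κB letters and Cxcl14 held ISRE and the interferon-gamma activated sequence (GAS, TTCNNNGAA). Of 32851 windows genome-wide, 7.25% held κB, 2.98% ISRE, 7.02% GAS and 0.0335% the direct repeat AGGTCANAGGTCA bound by PPARγ, and no member window held the last.

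Apart from Ccl28, the ligands called were higher in TD or TA than in WT, or higher in TD than in TA. Of 25 members that could be tested, TD exceeded WT for 12 and lay below it for 1 (edgeR quasi-likelihood test, Benjamini-Hochberg adjusted p under 0.05), where 29.2% of all 15117 genes tested were called, 15.1% upward and 14.2% downward. TA exceeded WT for 6 members and lay below it for 0, where 11.1% of all genes were called, 6.72% upward and 4.41% downward; 3 members were lower at an unadjusted p under 0.05 and 1 by DESeq2. TD exceeded TA for 8 members and lay below it for 0, where 16.7% of all genes were called, 7.33% upward and 9.37% downward, with 0 lower at an unadjusted p under 0.05 and 0 by DESeq2. The median log2 fold change of the 25 was 0.64, -0.059 and 0.50 in these comparisons, and that of all genes was 0.011, -0.0056 and 0.023. The first pair of comparisons share the WT libraries, and all 6 members called in TA against WT were also called in TD against WT. The number called between TD and TA hung on single libraries. Leaving out TA replicate 3 gave 16 calls, leaving out TD replicate 3 gave 5, and leaving out TA replicate 1, TA replicate 2 or TD replicate 4 gave 4 each.

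**Figure D1:**
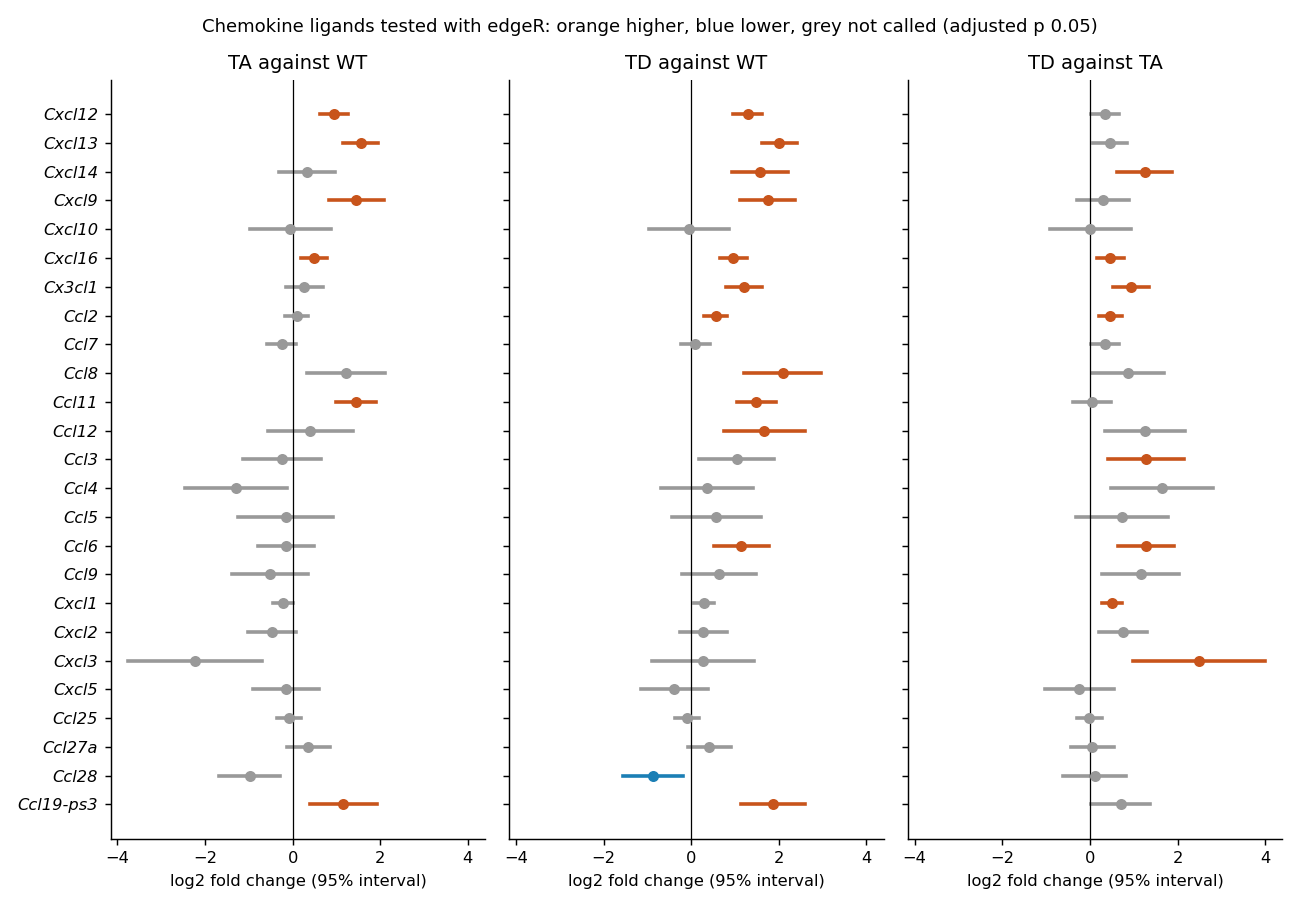
Log2 fold changes (x axis) of the 25 tested chemokine ligands (y axis) with 95% intervals from edgeR, in TA against WT, TD against WT and TD against TA. Orange marks members called higher, blue lower and grey not called; the panels hold 6, 12 and 8 orange members from left to right, and Ccl28 in TD against WT is the only one called lower.

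Libraries did not overlap between TD and WT for 14 members, 13 of them higher in TD, where 32.2% of all genes did not overlap, 15.8% upward and 16.4% downward. Between TA and WT 6 members did not overlap, all higher in TA, where 13.6% of all genes did so, 7.71% upward and 5.85% downward. Between TD and TA 8 did not overlap, all higher in TD, where 19.9% of all genes did so, 9.32% upward and 10.6% downward. Of the 25, 19 reached the filter level of 0.555 CPM in all 12 libraries. Ccl4 and Ccl19-ps3 reached it in all 4 libraries of TD only, and Ccl5 and Cxcl3 in all 4 of no genotype. The filter asked for 4 libraries of any genotype, so passing it was tied to genotype for Ccl19-ps3 and Cxcl3. Ccl4 reached the level in 3 WT, 3 TA and 4 TD libraries and Ccl5 in 2 WT, 1 TA and 2 TD libraries. Ccl19-ps3 reached the level in 0 WT, 3 TA and 4 TD libraries and Cxcl3 in 2 WT, 0 TA and 3 TD libraries. Over the 22 tested members with a mean of 1 CPM or more in all libraries together, a choice made after seeing the data, 11 higher and 1 lower remained in TD against WT, 5 higher in TA against WT and 7 higher in TD against TA.

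The homeostatic CXC ligands made up most of the chemokine RNA. In TD 3 of 3 were higher than in WT, where 15.1% of all genes were called higher. Cxcl12 (stromal-derived factor 1), which holds and guides progenitors through Cxcr4 and is also bound by the scavenging receptor Ackr3, was measured at 309, 411, 389 and 288 CPM in WT, at 685, 455, 870.0 and 681 in TA, and at 798, 845, 832 and 928 in TD. Every TA and TD library lay above every WT library, while TA replicate 3 reached into the TD range. Cxcl12 was 2.44-fold higher in TD than in WT (log2 1.28 ± 0.16 SE, edgeR adjusted p = 8.18e-05) and 1.93-fold higher in TA than in WT (log2 0.95 ± 0.15 SE, edgeR adjusted p = 0.000778). TD and TA differed by log2 0.34 (95% interval 0.02 to 0.66, edgeR adjusted p = 0.141), and without TA replicate 3 by 0.49 (edgeR adjusted p = 0.0207). That difference passed in 2 of 15 other settings of the fit, and with 1 library left out it ran from log2 0.20 to 0.49.

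Cxcl13, the B cell attractant that signals through Cxcr5, had the smallest adjusted p of the 25 members in both comparisons with WT. Its levels were 143, 159, 151 and 104 CPM in WT, 495, 261, 549 and 324 in TA, and 520.4, 556, 562 and 598 in TD. WT libraries sat well below all others, and TA libraries were spread widely with replicate 3 inside the TD range. The fold was 4.02 in TD against WT (log2 2.01 ± 0.19 SE, edgeR adjusted p = 2.57e-05) and 2.93 in TA against WT (log2 1.55 ± 0.19 SE, edgeR adjusted p = 5.29e-05). TD exceeded TA by log2 0.46 (95% interval 0.07 to 0.84, edgeR adjusted p = 0.0982), or by 0.63 without TA replicate 3 (edgeR adjusted p = 0.0139). That difference passed in 2 of 15 other settings, and with 1 library left out it ran from log2 0.30 to 0.63. Cxcr5, the receptor of Cxcl13, had 0 counts in every library.

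Together Cxcl12 and Cxcl13 held 70.3 to 73.7% of chemokine CPM in WT, 81.1 to 86.8% in TA and 80.9 to 81.2% in TD. The sum over all chemokine rows was 685 ± 111 CPM in WT, 1284 ± 339 in TA and 1738 ± 106 in TD (SD, n = 4). Without that pair, the other 45 rows summed to 196 ± 32.2, 203 ± 50.5 and 328 ± 19.9 CPM (SD, n = 4), so the TA and WT sums differed mainly in those 2 genes while the TD sum was higher in the remainder too.

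Fibroblast markers stood beside both. The library with the highest fibroblast sum in each genotype (WT replicate 2, TA replicate 3 and TD replicate 4) was also the highest for Cxcl12, Cxcl13, Cxcl16, Ccl2 and Cxcl3. WT replicate 2 and TA replicate 3 also had the highest macrophage sum, and TA replicate 3 was the highest TA library for most tested members. The fibroblast sum was lowest in WT replicate 1, TA replicate 2 and TD replicate 1. Cxcl12 and Cxcl13 were lowest in WT replicate 4, TA replicate 2 and TD replicate 1. Of the 8 tested fibroblast markers, 7 were higher in TD than in WT, 5 in TA than in WT and 3 in TD than in TA. Over all genes, 15.1%, 6.72% and 7.33% were called higher in these comparisons. The part of fibroblast RNA in the chemokine levels was not tested.

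Cxcl14, an epithelial and stromal chemokine whose receptor is unsettled, was measured at 13.4, 11.3, 16.4 and 10.6 CPM in WT, 11.9, 8.30, 28.1 and 16.2 in TA, and 23.4, 53.5, 32.4 and 44.2 in TD. TD libraries were all above WT, whereas TA replicate 3 overlapped with TD and the other TA libraries lay in or near the WT range. It was 2.97-fold higher in TD than in WT (log2 1.57 ± 0.30 SE, edgeR adjusted p = 0.00115) and 2.37-fold higher than in TA (log2 1.25 ± 0.30 SE, edgeR adjusted p = 0.00935). TA against WT gave log2 0.32 (95% interval -0.32 to 0.96, edgeR adjusted p = 0.567).

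**Figure D2:**
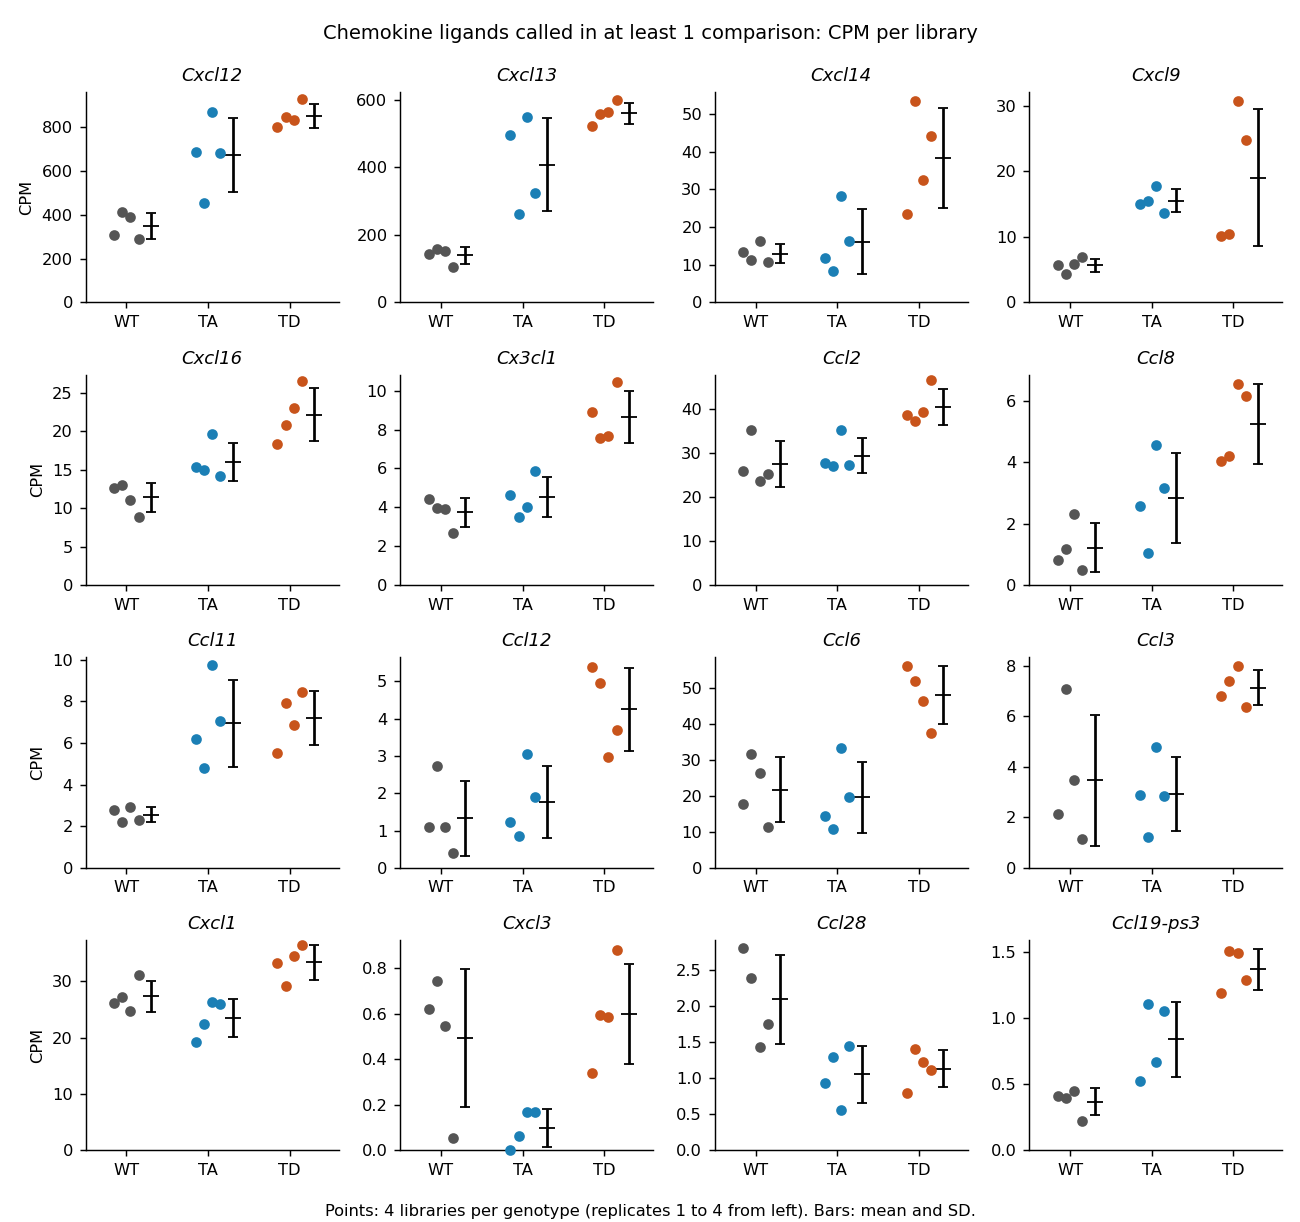
Each panel plots CPM (y axis, from 0) of 1 of the 16 members called in at least 1 comparison in the 4 libraries of WT, TA and TD (x axis), with points for replicates 1 to 4 from the left and bars for the mean and SD. Cxcl12 and Cxcl13 have by far the highest axes, with the TA means between those of WT and TD, while Cx3cl1 and Ccl6 overlap in WT and TA and are higher in every TD library.

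Among the membrane-bound chemokines, both were higher in TD than in either other genotype. Over all genes, 15.1% were called higher in TD against WT and 7.33% in TD against TA. Cx3cl1 (fractalkine), the ligand of Cx3cr1 on monocytes, was measured at 4.41, 3.97, 3.91 and 2.69 CPM in WT, 4.62, 3.51, 4.01 and 5.89 in TA, and 8.91, 7.55, 7.66 and 10.4 in TD. The 4 TD libraries stood apart from all 8 others, which overlapped with each other. The fold was 2.30 in TD against WT (log2 1.20 ± 0.19 SE, edgeR adjusted p = 0.000366) and 1.91 in TD against TA (log2 0.93 ± 0.19 SE, edgeR adjusted p = 0.00357). TA against WT gave log2 0.27 (95% interval -0.15 to 0.68).

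Cxcl16, which tethers Cxcr6-bearing cells and also takes up oxidized lipoprotein, was graded across the genotypes. It was measured at 12.6, 13.0, 11.1 and 8.88 CPM in WT, 15.3, 14.9, 19.6 and 14.1 in TA, and 18.3, 20.8, 23.0 and 26.4 in TD. WT lay below all other libraries, and TA replicate 3 fell between TD replicates 1 and 2. The log2 fold change was 0.96 ± 0.14 (SE) in TD against WT (edgeR adjusted p = 0.000247), 0.49 ± 0.15 in TA against WT (edgeR adjusted p = 0.0387) and 0.47 ± 0.14 in TD against TA (edgeR adjusted p = 0.0327). The call in TA against WT was lost in 8 of 15 other settings: without WT replicates 1, 3 or 4 or TA replicates 1 or 3 (edgeR adjusted p up to 0.12), with the replicate block (0.0621), with library totals (0.0515) and with only the 8 libraries compared (0.0557), and that in TD against TA without TA replicates 1, 2 or 4 or TD replicates 3 or 4 (edgeR adjusted p up to 0.122). Zmynd15, on the opposite strand, shares 552 bases of exon with it and had the lower mean count (69.5 against 299), and the strand setting of the counting is not given in the sources used here.

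The pair of Cxcr3 ligands, which draw activated T cells and are induced by interferon-gamma, did not move alike. Cxcl9 was measured at 5.66, 4.37, 5.80 and 6.85 CPM in WT, 15.03, 15.5, 17.8 and 13.6 in TA, and 10.1, 10.46, 30.8 and 24.8 in TD. All TA and TD libraries were above WT, with the TA libraries close together inside a TD range split into a low and a high pair. Cxcl9 was 2.74-fold higher in TA (log2 1.45 ± 0.30 SE, edgeR adjusted p = 0.0044) and 3.36-fold higher in TD (log2 1.75 ± 0.30 SE, edgeR adjusted p = 0.000534) than in WT, and TD against TA gave log2 0.30 (95% interval -0.29 to 0.88).

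Cxcl10, whose window held both κB and ISRE letters, was measured at 10.2, 4.62, 3.52 and 15.1 CPM in WT, 9.01, 12.5, 6.07 and 4.45 in TA, and 4.49, 5.93, 6.65 and 15.2 in TD. The 3 genotypes overlapped throughout, and libraries of 1 genotype differed more than genotype means did. TD differed from WT by log2 -0.05 (95% interval -0.97 to 0.87) and TA by -0.06 (95% interval -0.98 to 0.87), so differences within those intervals are not excluded. Art3, on the opposite strand, shares 133 bases of exon and had the higher mean count (325 against 146), which leaves Cxcl10 counts uncertain. Cxcl11, named as the remaining ligand of Cxcr3 but annotated here as a polymorphic pseudogene, had 9 counts in all.

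The 4 ELR CXC ligands, which act on neutrophils through Cxcr2, gave 2 calls in TD against TA and were not called against WT. Both were upward, where 7.33% of all genes were called higher. Cxcl1 was measured at 26.1, 27.3, 24.7 and 31.0 CPM in WT, 19.1, 22.4, 26.3 and 25.9 in TA, and 33.2, 29.2, 34.4 and 36.4 in TD. TD lay above TA without overlap, and WT overlapped with both. The TD to TA fold was 1.42 (log2 0.50 ± 0.11 SE, edgeR adjusted p = 0.00533). Against WT, TD gave log2 0.29 (95% interval 0.06 to 0.52, edgeR adjusted p = 0.0546), and it passed in 7 of 15 other settings (edgeR adjusted p = 0.0251 at the lowest, with only the 8 libraries compared).

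Cxcl2 was measured at 3.37, 6.11, 5.70 and 3.34 CPM in WT, 2.11, 2.71, 4.84 and 3.67 in TA, and 4.599, 5.55, 6.55 and 5.80 in TD. TA replicate 3 was the one TA library within the TD range. TD against TA gave log2 0.75 (95% interval 0.20 to 1.30, edgeR adjusted p = 0.0566), which passed in 5 of 15 other settings, among them DESeq2 (adjusted p = 0.0285) and leaving out TA replicate 3 (log2 0.99, edgeR adjusted p = 0.0119).

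Cxcl3 was rare, with 12, 15, 11 and 1 counts in WT, 0, 1, 3 and 3 in TA and 6, 11, 11 and 15 in TD. Every TA library was below every TD library, and WT replicate 4 fell in the TA range. As a ratio of summed counts scaled to depth, TD was 5.91 times TA (95% exact interval 2.64 to 15.6, counting error only), and the edgeR adjusted p was 0.0254. That call, in a gene that reached the filter level in no TA library, was lost without TA replicates 1 or 2 or TD replicates 3 or 4 (edgeR adjusted p up to 0.0809), and DESeq2 gave no adjusted p. TA was 0.202 times WT (95% exact interval 0.0761 to 0.456), with an edgeR adjusted p of 0.0596, or 0.0154 without WT replicate 4. This comparison passed in 2 of 12 other settings, and with 1 library left out it ran from log2 -2.58 to -1.84.

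Cxcl5, the fourth of these ligands, was measured at 2.49, 2.33, 2.13 and 2.90 CPM in WT, 2.69, 1.48, 3.79 and 0.889 in TA, and 1.36, 1.24, 2.55 and 2.35 in TD. Genotypes overlapped, and TD against WT gave log2 -0.39 (95% interval -1.16 to 0.38). Cxcl1, Cxcl2 and Cxcl3, neighbours on chromosome 5, are similar in sequence, and reads may be shared among them.

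Of 5 tested monocyte chemoattractant and eotaxin ligands, which lie in a cluster on chromosome 11, 4 were higher in TD than in WT and 1 in TA than in WT. The shares of all genes called higher there were 15.1% and 6.72%. Ccl2, the main monocyte attractant and ligand of Ccr2, was measured at 25.9, 35.1, 23.6 and 25.2 CPM in WT, 27.8, 27.1, 35.2 and 27.3 in TA, and 38.5, 37.1, 39.3 and 46.5 in TD. All TD libraries were above all others, with WT replicate 2 and TA replicate 3 nearest to them. The fold was modest, at 1.47 against WT (log2 0.56 ± 0.12 SE, edgeR adjusted p = 0.00327) and 1.38 against TA (log2 0.46 ± 0.12 SE, edgeR adjusted p = 0.0182), and TA against WT gave log2 0.10 (95% interval -0.17 to 0.36). The call against TA was lost without TA replicate 1, TA replicate 2 or TD replicate 4 (edgeR adjusted p = 0.0504, 0.0572 and 0.0712).

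Ccl11 (eotaxin), the eosinophil attractant that signals through Ccr3, was measured at 2.80, 2.18, 2.92 and 2.30 CPM in WT, 6.20, 4.80, 9.74 and 7.06 in TA, and 5.51, 7.92, 6.87 and 8.44 in TD. WT was below both mutants, which overlapped with each other. The fold was 2.72 in TA (log2 1.44 ± 0.22 SE, edgeR adjusted p = 0.000363) and 2.81 in TD (log2 1.49 ± 0.22 SE, edgeR adjusted p = 0.000203), and TD against TA gave log2 0.05 (95% interval -0.38 to 0.47).

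Ccl8, a ligand of Ccr8 in mice, was measured at 0.830, 1.19, 2.33 and 0.493 CPM in WT, 2.57, 1.05, 4.56 and 3.17 in TA, and 4.03, 4.20, 6.55 and 6.16 in TD. TD lay above WT, and TA spanned the space between. It was 4.27-fold higher in TD than in WT (log2 2.09 ± 0.42 SE, edgeR adjusted p = 0.00154). TA against WT gave log2 1.22 (edgeR adjusted p = 0.0777), and 1.74 without WT replicate 3 and 1.49 without TA replicate 2 (edgeR adjusted p = 0.0205 and 0.0164), and passed in 5 of 14 other settings, DESeq2 (adjusted p = 0.0281) among them. TD against TA gave log2 0.88 (edgeR adjusted p = 0.133), and 1.20 without TA replicate 3 (edgeR adjusted p = 0.0403). The latter comparison passed in 2 of 14 other settings, and with 1 library left out it ran from log2 0.61 to 1.20.

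Ccl12, a mouse ligand of Ccr2, was measured at 1.09, 2.73, 1.09 and 0.384 CPM in WT, 1.23, 0.861, 3.06 and 1.89 in TA, and 5.39, 4.96, 2.98 and 3.69 in TD. TD and WT did not overlap, and TA replicate 3 reached the lower end of TD. TD was 3.18-fold above WT (log2 1.67 ± 0.44 SE, edgeR adjusted p = 0.00917), and TD against TA gave log2 1.26 (edgeR adjusted p = 0.054), which passed in 5 of 14 other settings, among them DESeq2 (adjusted p = 0.0231) and leaving out TA replicate 3 (log2 1.67, edgeR adjusted p = 0.0131).

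Ccl7, which acts on several CC receptors including Ccr2, was measured at 18.1, 24.8, 18.6 and 17.97 CPM in WT, 17.3, 16.6, 21.8 and 11.3 in TA, and 22.1, 20.8, 20.97 and 21.2 in TD. WT replicate 2 was above all TD libraries, so Ccl7 did not share the separation of its neighbour Ccl2. TD against WT gave log2 0.10 (95% interval -0.23 to 0.42). TD against TA gave log2 0.34 (edgeR adjusted p = 0.139), or 0.50 without TA replicate 3 (edgeR adjusted p = 0.0218). The latter comparison passed in 2 of 15 other settings, and with 1 library left out it ran from log2 0.21 to 0.50. Ccl24, another eotaxin, had 20 counts over all libraries and was not tested, with 0 to 3 in WT, 0 to 5 in TA and 0 to 3 in TD.

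The macrophage inflammatory protein ligands, which attract monocytes and other leukocytes, gave 1 call in TD against WT and 2 in TD against TA among 5 tested. These calls were upward, where 15.1% and 7.33% of all genes were called higher, so the 1 call against WT is near that share. Ccl6, a ligand of Ccr1 made mainly by myeloid cells, was measured at 17.6, 31.6, 26.3 and 11.3 CPM in WT, 14.4, 10.9, 33.4 and 19.8 in TA, and 56.1, 51.9, 46.5 and 37.3 in TD. All TD libraries were above all others. The fold was 2.21 against WT (log2 1.141 ± 0.30 SE, edgeR adjusted p = 0.00882) and 2.44 against TA (log2 1.29 ± 0.30 SE, edgeR adjusted p = 0.0086).

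Ccl9, its neighbour and also a ligand of Ccr1, was measured at 18.9, 40.4, 25.0 and 8.49 CPM in WT, 11.5, 7.32, 34.5 and 11.7 in TA, and 40.5, 35.5, 30.2 and 39.1 in TD. WT replicate 2 and TA replicate 3 lay within the TD range. TD against WT gave log2 0.64 (95% interval -0.21 to 1.49, edgeR adjusted p = 0.249). TD against TA gave log2 1.15 (edgeR adjusted p = 0.064), and it passed in 4 of 15 other settings, reaching log2 1.83 without TA replicate 3 (edgeR adjusted p = 0.00148). TA against WT gave log2 -0.51 (edgeR adjusted p = 0.488), and -1.19 without TA replicate 3 (edgeR adjusted p = 0.0378). This last comparison passed in 2 of 15 other settings, and with 1 library left out it ran from log2 -1.19 to -0.10.

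Ccl3, a ligand of Ccr1, was measured at 2.13, 7.10, 3.47 and 1.15 CPM in WT, 2.87, 1.23, 4.79 and 2.83 in TA, and 6.81, 7.38, 7.98 and 6.39 in TD. WT replicate 2 was the one library outside TD that reached the TD range. It differed by log2 1.28 ± 0.41 (SE) in TD against TA (edgeR adjusted p = 0.0433), a call that held without TA replicate 3 and was lost without any of the other 7 libraries of these genotypes (edgeR adjusted p = 0.0618 to 0.12) or with DESeq2 (adjusted p = 0.0665). In TD against WT it was 1.04 (edgeR adjusted p = 0.064), and it passed in 4 of 15 other settings, reaching log2 1.65 without WT replicate 2 (edgeR adjusted p = 0.00348).

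Ccl4, which attracts monocytes and T cells, was measured at 2.59, 4.72, 0.743 and 0.493 CPM in WT, 0.643, 0.553, 1.39 and 0.889 in TA, and 3.29, 2.43, 3.51 and 1.76 in TD. TD lay above TA without overlap and WT spanned both. TD against TA gave log2 1.65 (95% interval 0.48 to 2.81, edgeR adjusted p = 0.0502), and it passed in 6 of 14 other settings, among them DESeq2 (adjusted p = 0.0145), the 8 libraries alone (edgeR adjusted p = 0.0075) and leaving out TA replicate 3 (log2 1.97, edgeR adjusted p = 0.0293). Ccl5, another attractant of T cells, stayed between 0.278 and 1.19 CPM and was not called.

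Macrophage markers stood beside these ligands. In each genotype Ccl6 was highest and lowest in the same libraries as the macrophage sum, which was highest in WT replicate 2, TA replicate 3 and TD replicate 1 and lowest in WT replicate 4, TA replicate 2 and TD replicate 4. Ccl7, Ccl9 and Ccl12 shared the highest library in all 3 genotypes, and Ccl3 and Ccl4 the lowest. The fibroblast sum was highest in the same WT and TA libraries, so the highest libraries of the marker sums differ only in TD. Of the 14 macrophage markers, 2 were higher in TD than in WT and 4 in TD than in TA. Over all genes, 15.1% and 7.33% were called higher there, so the count in TD against WT was near that share. DESeq2 called 1 and 4 higher, and the list median was log2 0.41 and 0.97 in these comparisons. In TA against WT edgeR called 0, DESeq2 called 0, and 1 was higher and 5 lower at an unadjusted p under 0.05. Cd163 rose most in TD against WT (log2 2.44 ± 0.31 SE, edgeR adjusted p = 9.24e-05) and Mrc1 most in TD against TA (log2 1.68 ± 0.48 SE, edgeR adjusted p = 0.0244). Cxcl9 was highest in WT replicate 4, TA replicate 3 and TD replicate 3, and so shared the highest library in 1 genotype. The part of macrophage RNA in the levels of these ligands was not tested.

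**Figure D3:**
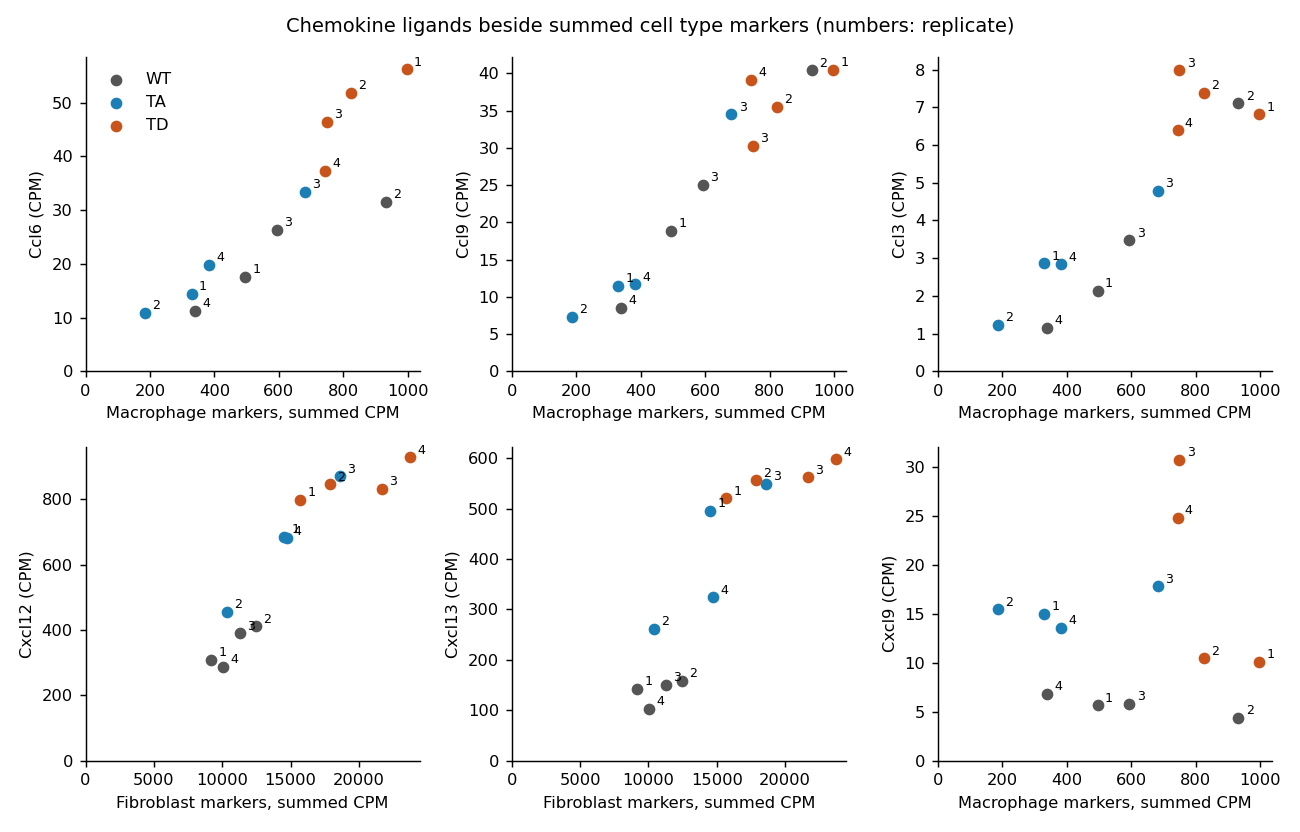
Each panel plots CPM of 1 chemokine ligand (y axis) against the summed CPM of 14 macrophage or 9 fibroblast markers (x axis) in the 12 libraries, coloured by genotype and numbered by replicate. The libraries with the highest macrophage sum are also the highest for Ccl6 and Ccl9 in each genotype, and Cxcl9 in WT stays at 4.37 to 6.85 CPM over macrophage sums from 339 to 932 CPM.

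The epithelial and thymic CC ligands were the group in which 0 of 3 tested members were called higher in any comparison. Ccl28, a mucosal ligand of Ccr10, was measured at 2.80, 2.38, 1.44 and 1.75 CPM in WT, 0.936, 1.29, 0.557 and 1.44 in TA, and 0.795, 1.401, 1.22 and 1.11 in TD. WT libraries were higher than all TD libraries, by a narrow margin at WT replicate 3, and TA replicate 4 was just above that WT library. Ccl28 fell by 0.88 on the log2 scale in TD against WT (SE 0.32, edgeR adjusted p = 0.0496), and the call was lost without any one of these libraries but WT replicate 3 (edgeR adjusted p = 0.0558 to 0.161), with the replicate block (0.0664), with library totals (0.0673) and without a filter (0.066). TA against WT gave log2 -0.98 (edgeR adjusted p = 0.0633), and it passed in 4 of 15 other settings, DESeq2 (adjusted p = 0.0409) among them.

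Ccl25, the thymic and gut ligand of Ccr9, was the steadiest member, at 8.92, 8.64, 9.12 and 8.33 CPM in WT, 8.36, 8.67, 9.74 and 6.33 in TA, and 8.18, 8.84, 8.30 and 7.45 in TD. Genotypes overlapped, and the 95% interval of TD against WT ran from -0.38 to 0.19 on the log2 scale. Elavl1, on the opposite strand, shares 204 bases of exon and had the higher mean count (805 against 154), so the Ccl25 counts are uncertain. Ccl27a, a skin ligand of Ccr10, was measured at 5.45, 5.56, 3.32 and 4.16 CPM in WT, 4.62, 3.63, 6.85 and 8.50 in TA, and 6.30, 5.82, 6.44 and 5.98 in TD. TD lay just above WT without overlap, but the difference of log2 0.41 did not pass (95% interval -0.08 to 0.90, edgeR adjusted p = 0.202), and its counts are uncertain as Il11ra1 overlaps 8 bases of its exons with a mean count of 2444 against 101.

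Several members are near-identical copies, and reads that match more than 1 copy may be split among them or lost, so their counts are uncertain. The Ccl27 row on a scaffold outside the chromosome sequences had 42 counts, 1 to 2 per library in WT, 2 to 6 in TA and 3 to 8 in TD. Ccl27b had 15 counts, and neither row was tested. Ccl19-ps3, annotated as a pseudogene on chromosome 4, was measured at 0.415, 0.397, 0.446 and 0.219 CPM in WT, 0.526, 1.11, 0.668 and 1.06 in TA, and 1.19, 1.51, 1.49 and 1.29 in TD. The 3 genotypes did not overlap. It passed the filter through TA and TD alone, so its calls against WT are no support for a difference beyond the levels given. The fit gave log2 1.87 ± 0.35 (SE) in TD against WT (edgeR adjusted p = 0.000974) and 1.16 ± 0.36 in TA against WT (edgeR adjusted p = 0.049). The TA call was lost on leaving out any one WT library or TA replicate 2, 3 or 4 (edgeR adjusted p = 0.0555 to 0.13), and in 12 of 13 other settings in all, DESeq2 (adjusted p = 0.0586) among them. Both rows of Ccl19, the homeostatic ligand of Ccr7, had 0 counts.

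Rows below 10 counts had at most 3 in a library. These were Cxcl11, Ccl21b (2 rows, 6 and 2 counts), Ccl20 (2), Cxcl17 (2), Cxcl15 (1) and Ccl22 (1). Rows at 0 were Ccl1, Ccl17, Ccl19, Ccl19-ps1, Ccl21a, another copy of Ccl21b, Ccl21c, Ccl26, a second Ccl27 row and Xcl1. The Ccr4 ligands Ccl17 and Ccl22 were thus at or near 0 at this depth, where a count of 0 allows up to 3 counts in a library. For Ccl19 and Ccl21, whose copies may lose reads, a count of 0 sets no such limit.

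Between genes, levels were compared per kilobase of exon. Cxcl13 stood first in every genotype, at 121, 354 and 486 CPM per kb in WT, TA and TD, and Cxcl12 second, at 48.8, 94.0 and 119. Next came Ccl2 with 33.7, 36.1 and 49.6, Cxcl1 with 28.6, 24.6 and 34.9, and Ccl7 with 24.8, 20.9 and 26.6. In TD Ccl6 rose to 33.3 CPM per kb, near the level of Cxcl1, while in WT and TA it was at 15.1 and 13.6. In WT the CPM of Ccl2 and Cxcl1 overlapped between libraries, so their order there is within the spread.

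**Figure D4:**
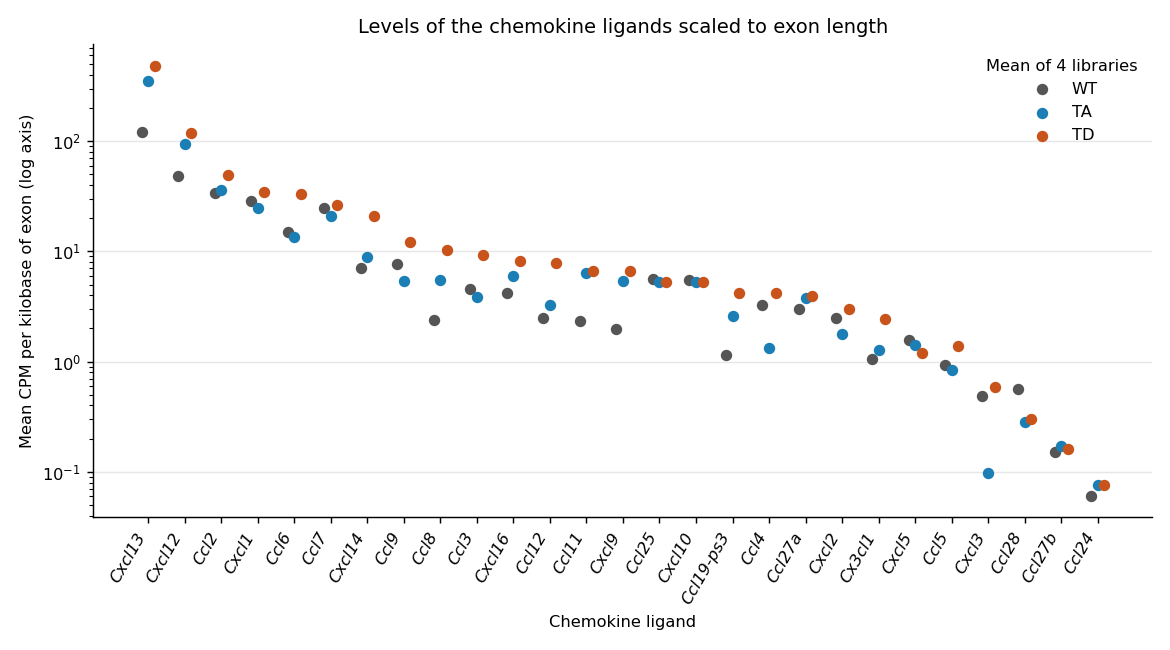
Mean CPM per kilobase of exon (y axis, log scale, 4 libraries per genotype) of the 27 chemokine ligands with 10 or more counts and an exon length (x axis), ordered by their highest mean. Cxcl13 and Cxcl12 lead in each genotype, and the lowest, Ccl24, is at 0.0605 to 0.0763 CPM per kb.

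Of 24 chemokine receptor genes, 9 could be tested, and 5 were higher in TD than in WT, 2 in TA than in WT and 3 in TD than in TA, where 15.1%, 6.72% and 7.33% of all genes were called higher. By edgeR 0 were lower in any comparison, while in TA against WT 1 was lower at an unadjusted p under 0.05 and 1 by DESeq2. Atypical receptors bind and remove chemokines without signalling through G proteins. Among these, Ackr4 was at log2 0.07 in TD against WT (edgeR adjusted p = 0.921), and Ackr2 rose in TD against WT (log2 1.84 ± 0.34 SE, edgeR adjusted p = 0.000987) but was at log2 0.47 in TA against WT (edgeR adjusted p = 0.472). Ackr3, which takes up Cxcl12, had the most RNA of the receptors, at 32.2 ± 9.71, 56.0 ± 13.9 and 93.8 ± 18.8 CPM in WT, TA and TD (SD, n = 4). It rose by log2 1.54 ± 0.20 (SE) in TD against WT (edgeR adjusted p = 0.000119), 0.79 ± 0.20 in TA against WT (edgeR adjusted p = 0.0175) and 0.74 ± 0.20 in TD against TA (edgeR adjusted p = 0.0173). Cxcr4, its signalling counterpart for Cxcl12, was at 0.868 ± 0.264, 1.79 ± 1.68 and 2.38 ± 1.07 CPM (SD, n = 4). It also rose in TD against WT (log2 1.44 ± 0.51 SE, edgeR adjusted p = 0.0447). It was not called in TA against WT (log2 1.04, edgeR adjusted p = 0.228) or TD against TA (log2 0.40, edgeR adjusted p = 0.619).

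Ackr1, found on venular endothelium and red cells, had the largest receptor fold change against WT, with log2 2.26 ± 0.28 (SE) in TD (edgeR adjusted p = 8.93e-05) and 1.72 ± 0.28 in TA (edgeR adjusted p = 0.000831). Ccr1, the receptor of Ccl6 and Ccl9, rose in TD against TA by log2 1.65 ± 0.40 (SE, edgeR adjusted p = 0.0113), and stood at 3.05 ± 1.36, 1.26 ± 0.954 and 4.01 ± 0.776 CPM in WT, TA and TD (SD, n = 4). Receptors on circulating leukocytes were near 0: Ccr2 had 1 count in all, Cxcr2 7, Ccr3 7, Cx3cr1 8, Cxcr6 23 and Cxcr3 27 counts, so many of the ligands measured had little receptor RNA in the same culture.

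In the NF-κB list of 27 factors, regulators and targets, TD exceeded WT for 9 and lay below it for 1, TA exceeded WT for 1 and lay below it for 1, and TD exceeded TA for 8 and lay below it for 1, where 29.2%, 11.1% and 16.7% of all genes were called in these comparisons. Traf1, a signalling adaptor, rose most in both TD comparisons (log2 0.89 ± 0.22 SE against WT, edgeR adjusted p = 0.00732, and 0.81 ± 0.23 SE against TA, edgeR adjusted p = 0.021). Vcam1, an adhesion molecule, was the one that rose in TA against WT (log2 0.71 ± 0.11 SE, edgeR adjusted p = 0.000358), and Tnfaip3, which restrains NF-κB, fell by 0.39 there (SE 0.08, edgeR adjusted p = 0.00315). Vcam1 rose in TD against WT too (log2 0.86 ± 0.11 SE, edgeR adjusted p = 8.93e-05). Chuk, an IκB kinase subunit, fell by 0.24 in TD against WT (SE 0.07, edgeR adjusted p = 0.0177), and Sod2, the mitochondrial superoxide dismutase, fell by 0.24 in TD against TA (SE 0.06, edgeR adjusted p = 0.0173). The list median was log2 0.145, 0.0022 and 0.18 in TD against WT, TA against WT and TD against TA, beside 0.011, -0.0056 and 0.023 over all genes.

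In the interferon response list, 11 of 26 were higher in TA than in WT, 8 were higher in TD than in WT, and 1 was lower in TD than in TA, where 6.72%, 15.1% and 9.37% of all genes were called in that direction. Oas1a, an antiviral enzyme, rose most in TA (log2 1.13 ± 0.29 SE, edgeR adjusted p = 0.0175) and in TD (log2 0.96 ± 0.29 SE, edgeR adjusted p = 0.0197) against WT. Psmb9, an immunoproteasome subunit, fell by 0.49 in TD against TA (SE 0.14, edgeR adjusted p = 0.0249). The list median was log2 0.39, 0.65 and -0.27 in TD against WT, TA against WT and TD against TA. Among receptors and adaptors upstream of chemokine genes, TD exceeded WT for 8 of 18 and lay below it for 1, TA exceeded WT for 2 and lay below it for 2, and TD exceeded TA for 2, where 29.2%, 11.1% and 16.7% of all genes were called in either direction. Il1r1, the interleukin-1 receptor, rose most in TD against WT (log2 0.96 ± 0.15 SE, edgeR adjusted p = 0.00035), and Tlr3, a sensor of double-stranded RNA, in TA against WT (log2 0.75 ± 0.20 SE, edgeR adjusted p = 0.0235). Tlr3 also rose in TD against WT (log2 0.73 ± 0.20 SE, edgeR adjusted p = 0.0129), and Il1r1 in TA against WT (log2 0.61 ± 0.15 SE, edgeR adjusted p = 0.0144). Il17rc, a subunit of the interleukin-17 receptor, fell by 0.50 in TD (SE 0.12, edgeR adjusted p = 0.00626) and by 0.52 in TA (SE 0.12, edgeR adjusted p = 0.0115) against WT. Tnfrsf1b, a tumour necrosis factor receptor, rose most in TD against TA (log2 0.59 ± 0.15 SE, edgeR adjusted p = 0.0129).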

How the data were processed

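RNA of 12 libraries (WT, TA and TD, 4 each, grouped by the genotype in their labels) was sequenced by the authors on a NovaSeq instrument. Per the labels and the submitters' processing notes, which name bcl2fastq 2.17.1.14, cutadapt 1.9.1, HISAT2 2.0.1, HTSeq 0.6.1 and GRCm38, the authors deposited raw read counts per gene, without normalization. The strand setting is not given in the sources used here. The study's methods name DESeq2 for its own comparisons. The table of the whole series equalled the 12 per-library files.

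Counts were analysed with R 4.3.3 and edgeR 4.0.16 (limma 3.58.1): 15117 genes passed filterByExpr (min.count 10, min.total.count 15) and were scaled by TMM. All 12 libraries entered 1 quasi-likelihood fit, so that genotypes share an estimate of the spread. Contrasts were tested two-sided and adjusted by Benjamini-Hochberg over all genes tested, with a threshold of 0.05. SE and 95% intervals came from that fit. The fit was tested on simulated data. CPM are counts per 1000000 of the scaled library size, and CPM per kb used merged exons of GENCODE M21 basic transcripts. No 2 libraries of a genotype agreed within sampling noise (chi-square per degree of freedom 4.95 to 38.7 over 18 pairs). Normalization factors ran from 0.957 to 1.04, and the common biological coefficient of variation was 12.9%.

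Every ligand with 10 or more counts was to be named, with values per library for those called or at a mean of 1 CPM or more in a genotype; of each pathway list the largest called rise and fall were to be named, and of each marker list the member with the most counts. Of receptors, the ones that match the ligands described were added after their values were seen. The members, the 7 pathway lists and the 15 marker lists were chosen with earlier results of these data known. Alternatives were RLE factors, library totals, DESeq2 1.42.0, other filters, 2 genotypes only, a replicate block, a fold threshold and leaving out each library. Upstream windows came from RefSeq tables.

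The marker lists not described with the results gave these sums in WT, TA and TD, in CPM. Dendritic cell markers (led by Zbtb46) summed to 10.6 to 14.0, 9.53 to 11.0 and 10.4 to 11.8. Neutrophil markers (S100a8, with Ly6g at 0) gave 2.90 to 4.61, 5.17 to 6.64 and 3.03 to 4.77, and mast cell markers (Cpa3) gave 5.64 to 12.7, 10.8 to 32.0 and 16.5 to 26.4. Lymphatic endothelium (Lyve1) gave 2.36 to 4.82, 5.23 to 11.6 and 9.69 to 14.8, and mesothelium (Krt19) 1.61 to 3.77, 1.11 to 3.14 and 2.50 to 4.80. Skeletal muscle (Myh1) gave 6.19 to 14.0, 19.7 to 77.4 and 20.4 to 304, pericyte and smooth muscle (Acta2) 92.8 to 101, 128 to 174 and 118 to 139, and epithelium (Krt18) 0.0496 to 2.25, 0.292 to 3.34 and 1.31 to 4.69. The result of 1 further marker list is not reported here. In the T and NK and B cell lists Cd4 and Cd79a had the most counts.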

Additional observations from a re-analysis of the deposited data

Results flagged for a closer look

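Of 75 groups of 4 libraries (25 tested ligands in 3 genotypes), 3 had a library far from its group, where the gap to the nearest library divided by the range exceeded Dixon's 95% critical value, and chance alone gives about 1 in 20 groups. Ccl2 was at 35.2 CPM in TA replicate 3, next to 27.8 CPM in the library closest to it and 27.1 CPM in the lowest. Ccl9 was at 34.5 CPM in the same library, next to 11.7 CPM and with 7.32 CPM in the lowest. Ccl7 was at 24.8 CPM in WT replicate 2, next to 18.6 CPM and with 17.97 CPM in the lowest. TA replicate 3 and WT replicate 2 were also the libraries of their genotypes with the highest macrophage and fibroblast marker sums.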

How the results depend on the processing

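Of 27 calls over the 3 comparisons, 20 held under every alternative fit (the fold threshold, which removes calls by construction, not counted), 7 were lost under at least 1 and 0 changed direction; of 48 uncalled values, 16 passed the threshold and 17 changed sign somewhere. Counts in TD against WT (13) ran from 12 to 13 with 1 library left out, and in TA against WT (6) from 4 to 6. In TD against TA (8) they ran from 4 to 16 with 1 library left out, and were 16 without a filter on low counts and 4 with an absolute log2 fold change above 1. The unfiltered fit gave far smaller adjusted p at nearly the same fold change. For Ccl9 in TD against TA it gave log2 1.16 (edgeR adjusted p = 9.6e-23) beside 1.15 (0.064) with the filter. It is among the other settings counted throughout, so passing through it alone adds little. Replicate numbers did not pair the libraries: correlations of same-numbered libraries ran from -0.237 to 0.196 over 12 pairs, and 2 of 12 libraries correlated best with their own number. With the replicate number as a block, 14 members were called between TD and WT, 5 between TA and WT and 10 between TD and TA. Under that block Cxcl10 turned to log2 0.13 between TA and WT and to -0.13 between TD and TA, and to 0.026 in TD against WT with library totals, which also gave 0.062 for Ccl25 in TD against TA. With 1 library left out, values that changed sign, the cause of which was not tested, spanned for TD against WT -0.55 to 0.40 (Cxcl10) and -0.092 to 0.53 (Cxcl3). For TA against WT they spanned -0.0033 to 0.24 (Ccl2), -0.17 to 0.020 (Ccl25), -0.58 to 0.38 (Ccl3), -0.45 to 0.012 (Ccl5), -0.53 to 0.092 (Ccl6), -0.36 to 0.39 (Cxcl10), -0.090 to 0.53 (Cxcl14) and -0.55 to 0.10 (Cxcl5). For TD against TA they spanned -0.089 to 0.25 (Ccl11), -0.11 to 0.074 (Ccl25), -0.12 to 0.29 (Ccl27a), -0.11 to 0.31 (Ccl28), -0.49 to 0.32 (Cxcl10), -0.49 to 0.16 (Cxcl5) and -0.038 to 0.51 (Cxcl9). Depth limits Cxcl3, Ccl5 and rows under 10 counts.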

Other observations

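Platelet factor 4 (Pf4), a CXC chemokine whose symbol lies outside the rule, was at 9.38 ± 4.97 CPM in WT, 9.42 ± 4.62 in TA and 20.5 ± 3.18 in TD (SD, n = 4). It rose by log2 1.12 ± 0.32 (SE) in TD against WT (edgeR adjusted p = 0.0154) and by 1.12 ± 0.32 in TD against TA (edgeR adjusted p = 0.0269). Ppbp, the other such gene, had 43 counts in all and was not tested.

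Of 10 proteases known to cut or shed chemokines, 4 were higher in TD than in WT, 2 were higher and 1 lower in TA than in WT, and 6 were higher in TD than in TA, beside 29.2%, 11.1% and 16.7% of all genes called in either direction. Mmp3 rose most in TD against WT (log2 1.18 ± 0.17 SE, edgeR adjusted p = 0.000187). Mmp2, which can clip Cxcl12, rose in TD against WT (log2 0.86 ± 0.16 SE, edgeR adjusted p = 0.000942) and in TA against WT (log2 0.52 ± 0.16 SE, edgeR adjusted p = 0.041). In TA against WT Mmp12, the macrophage elastase, fell by 1.07 (SE 0.31, edgeR adjusted p = 0.032). Mmp13, a collagenase, rose most in TD against TA (log2 1.67 ± 0.28 SE, edgeR adjusted p = 0.000939).

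Of 22 inflammatory cytokine genes, 9 could be tested, and 4 were higher in TD than in WT, 1 in TA than in WT and 2 in TD than in TA, beside 15.1%, 6.72% and 7.33% of all genes called higher. Il33, an alarmin of stromal cells, rose in TD (log2 1.65 ± 0.29 SE, edgeR adjusted p = 0.000619) and in TA (log2 1.04 ± 0.29 SE, edgeR adjusted p = 0.0272) against WT. Csf3, the granulocyte growth factor, rose most in TD against TA (log2 0.95 ± 0.25 SE, edgeR adjusted p = 0.0169). Ifng, Ifnb1, Il17a and Il17f had 0 counts in every library.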
